A study of Mus musculus with 12 samples.

Results

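The 10 genes described here are members of the Hippo pathway and targets of its effector YAP, out of 16971 genes listed for GFP(+) liver cells of mice before and after the bile duct was tied (bile duct ligation, BDL), so that bile could no longer drain. They were taken by name and were not picked by a threshold on these values. They are the coactivators *Yap1* and *Wwtr1* (which encodes TAZ), the DNA-binding factors *Tead1* and *Tead4*, the kinases *Lats1* and *Lats2*, the scaffold genes *Amotl2* and *Ajuba*, and the secreted matricellular factors *Ccn1* and *Ccn2*, formerly *Cyr61* and *Ctgf*. Of the 10, 9 had normalized counts that summed to at least 10 over the libraries, as did 12889 genes in all, and *Tead4* did not.

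All mice were C57BL/6 of the genotype Prom1CreERT2-nLacZ/+;Rosa26Lsl-GFP/+ and had received tamoxifen 7 days before sham surgery or BDL, so every group carries the same alleles and the same induction. In these mice GFP marks cells in which the *Prom1* locus drove Cre when tamoxifen was given, together with their progeny, whether or not they still express *Prom1*. Live GFP(+) cells of the nonparenchymal fraction were sorted on GFP with no further marker, at day 0 (called sham in the labels) and after 3 or 14 days of BDL. There were 12 labelled libraries (day 0, 3; BDL day 3, 3; BDL day 14, 6), and the deposited means rest on 3, 3 and 4 of them, since 2 libraries of BDL day 14 had been left out for low reads.

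The Hippo pathway is a kinase cascade in which the MST kinases activate the LATS kinases, and these phosphorylate YAP and TAZ, which are then held in the cytoplasm or degraded. Unphosphorylated YAP and TAZ enter the nucleus and bind TEAD factors, which switch on genes such as *Ccn1* and *Ccn2*. In the liver YAP is best known for organ size control and for biliary cell fate, and the pathway is regulated by phosphorylation and localization, neither of which is measured by mRNA.

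Promoters were read for the members because the coactivators reach the DNA through TEAD factors, whose core motif is GGAATG. RefSeq promoters (GRCm38.p6, 250 bases before to 50 after the start) were found for 7 of the 10 members, and 6 of these held the core on either strand, namely *Yap1*, *Wwtr1*, *Lats2*, *Amotl2*, *Ajuba* and *Ccn1*. The core was present in 14.7% of all 32851 promoters and occurred at least 2 times in 1.36%, while the AP-1 motif TGANTCA, which was present in 7.81%, was found in none of the members. The promoters of a coactivator pair, a scaffold pair and a target are shown so that the members lower at BDL day 3 can be set beside *Ajuba*, whose group means differed by under 1.5-fold. Each reads 5′ to 3′ on the strand of its gene, and capitals mark the TEAD core or its reverse complement.
Yap1, chr9:8004547-8004846, minus strand: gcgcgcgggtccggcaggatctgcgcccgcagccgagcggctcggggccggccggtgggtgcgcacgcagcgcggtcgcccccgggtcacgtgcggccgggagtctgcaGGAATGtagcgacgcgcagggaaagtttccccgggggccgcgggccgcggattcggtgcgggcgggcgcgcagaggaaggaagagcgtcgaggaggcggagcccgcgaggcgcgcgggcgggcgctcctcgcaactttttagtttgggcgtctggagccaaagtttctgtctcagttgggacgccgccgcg
Wwtr1, chr3:57575861-57576160, minus strand: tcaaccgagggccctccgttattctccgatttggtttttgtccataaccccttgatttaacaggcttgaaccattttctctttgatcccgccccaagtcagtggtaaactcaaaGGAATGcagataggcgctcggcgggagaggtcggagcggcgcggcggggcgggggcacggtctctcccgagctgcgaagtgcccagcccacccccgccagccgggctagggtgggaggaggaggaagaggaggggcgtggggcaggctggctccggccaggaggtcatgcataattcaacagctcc
Amotl2, chr9:102717554-102717853, plus strand: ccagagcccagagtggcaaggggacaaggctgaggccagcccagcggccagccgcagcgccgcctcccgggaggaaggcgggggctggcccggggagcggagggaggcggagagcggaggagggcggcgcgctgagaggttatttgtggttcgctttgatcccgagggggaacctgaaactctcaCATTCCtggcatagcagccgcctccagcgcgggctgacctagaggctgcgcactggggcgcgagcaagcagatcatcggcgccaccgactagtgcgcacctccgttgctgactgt
Ajuba, chr14:54577612-54577911, minus strand: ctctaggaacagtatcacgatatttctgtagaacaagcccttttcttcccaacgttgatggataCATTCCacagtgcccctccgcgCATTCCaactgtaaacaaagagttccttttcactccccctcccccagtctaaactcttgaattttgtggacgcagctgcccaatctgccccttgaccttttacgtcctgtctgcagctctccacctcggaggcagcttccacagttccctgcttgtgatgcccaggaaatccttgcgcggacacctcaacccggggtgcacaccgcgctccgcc
Ccn1, chr3:145649936-145650235, minus strand: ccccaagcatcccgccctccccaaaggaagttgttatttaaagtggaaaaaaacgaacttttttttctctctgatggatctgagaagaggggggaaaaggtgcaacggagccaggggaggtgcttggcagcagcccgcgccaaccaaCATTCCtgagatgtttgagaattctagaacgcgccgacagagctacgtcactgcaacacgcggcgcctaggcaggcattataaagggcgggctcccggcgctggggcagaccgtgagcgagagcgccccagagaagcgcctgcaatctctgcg
The core began 141 bases before the start in *Yap1*, 136 bases before it in *Wwtr1* (170 for its second start), 65 in *Amotl2*, 103 in *Ccn1*, and 186 and 164 in *Ajuba*, the member with 2 cores. In *Lats2* it began at base 4 after 1 of 2 starts, and *Lats1* had none. Of the 15 genes of the YAP and TAZ target signature with a promoter, 7 held the core. Of the 6 members with the core, *Yap1*, *Wwtr1*, *Amotl2* and *Ccn1* were over 1.5-fold lower at BDL day 3, while *Lats2* and *Ajuba* were not. Whether the core goes with a difference between the groups was not tested. A match is a run of letters and is not evidence of binding.

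The values below are the authors' group means of normalized counts, and no library has a column of its own. The table also gives each gene's geometric mean over all 10 libraries and its highest library. The gap between the group means and the geometric mean gives the spread within groups, printed here as 1 pooled SD on the log2 scale (7 residual degrees of freedom) and, for each log2 ratio of 2 group means, as an SE. The same totals bound what any 1 library can have been. A difference is described as over 1.5-fold, the minimum fold of the study's methods, and as over 2 SE or not, and no p-value was computed. The pooled SD of the members ran from 0.48 for *Lats2* to 1.72 for *Tead1*. Its median was 0.79 over all 10 members, *Tead4* (1.05) included, against 0.58 over all genes kept. The median member thus varied more between libraries than the median gene kept. Levels of most members were low (up to 62.5 normalized counts), and the reads behind each library are unknown.

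Checked against their markers, the sorted cells carried far more macrophage than cholangiocyte RNA. Over the groups in order of time, the 8 macrophage markers summed to 10768, 21222 and 14249 normalized counts, led by *Clec4f* and *Lyz2* at day 0. The 10 cholangiocyte markers summed to 580, 264 and 891, most of it *Spp1*, which macrophages also express, and without *Spp1* to 121, 89.0 and 98.9. With *Spp1* counted, the summed macrophage markers stood 18.6-fold, 80.4-fold and 16.0-fold above the summed cholangiocyte markers, although the study calls the cells progenitors and their progeny. Without *Spp1* the cholangiocyte sum was smaller in every group, so the macrophage excess was larger than these ratios. The cholangiocyte sum was higher at BDL day 14 than at day 0 only with *Spp1*, so the course of these ratios over time depends on that gene. Because these are bulk libraries, fewer cells of a type and less RNA per cell cannot be told apart in any value given here.

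At BDL day 3, 6 of the 9 members kept were over 1.5-fold lower than at day 0 and 0 were over 1.5-fold higher. The lower members were *Yap1*, *Wwtr1*, *Tead1*, *Amotl2*, *Ccn1* and *Ccn2*. Over all genes kept, 29.2% were over 1.5-fold lower and 19.2% higher. With the further condition of 2 SE, 3 members (*Yap1*, *Wwtr1* and *Amotl2*) stayed lower against 15.0% of all genes, and 0 were higher against 11.4%. That call of *Amotl2* rested on 1 day 0 library, without which its log2 ratio was -0.83, under its SE of 0.87. The median log2 ratio of the members was -1.22, and that of all genes kept was -0.02. With quantile normalization of the group means, 6 members were lower and 1 (*Ajuba*) was higher. No member had libraries that could be shown not to overlap between the groups, which was so for 3.07% of all genes.

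**Figure D1:**
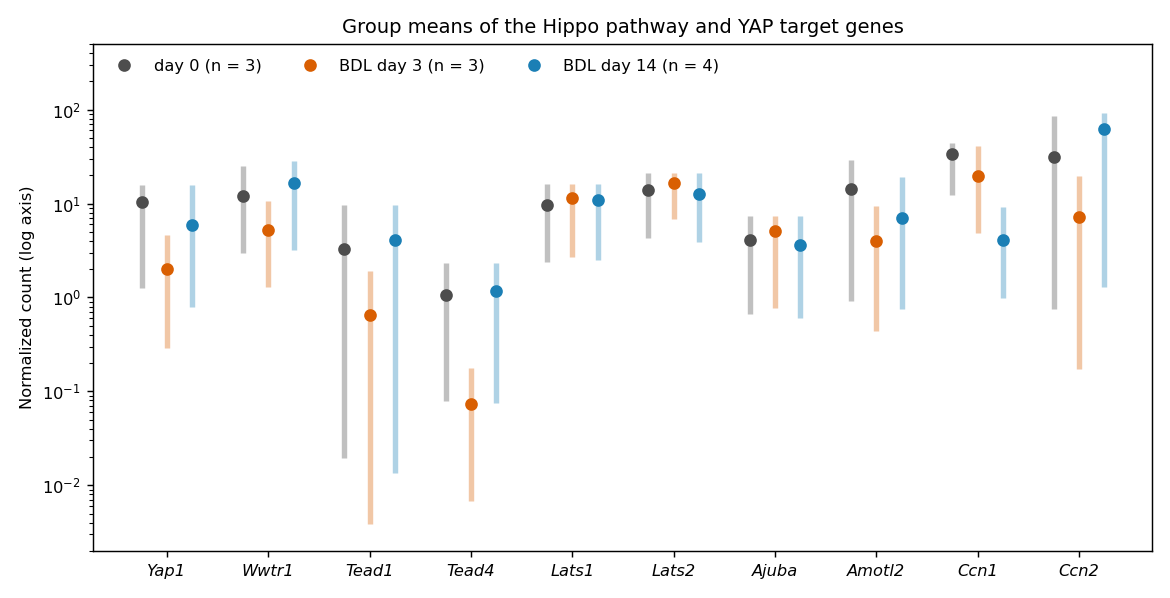
Group means (points) of the 10 members in normalized counts on a log axis, with n = 3, 3 and 4 libraries for the groups as coloured. Each bar spans the values that a single library of the group can have had, given the group means, the geometric mean and the highest library, and is not an SD. The point of *Ccn1* at BDL day 14 (4.12) lies under the whole day 0 bar, while the *Lats1*, *Lats2* and *Ajuba* points stay almost level.

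*Yap1*, the transcriptional coactivator held back by LATS kinases, lies on the minus strand at chromosome 9, 7931999 to 8004596 (mm10). Its 3 day 0 libraries averaged 10.4 normalized counts, against 2.02 for BDL day 3 and 5.84 for BDL day 14, with a pooled SD of 0.84. The day 0 mean was thus the highest and the BDL day 3 mean the lowest. A single library could lie between 1.26 and 15.8 (day 0), between 0.288 and 4.67 (BDL day 3) and between 0.796 and 15.8 (BDL day 14), so libraries of these groups may overlap. The log2 ratio at BDL day 3 was -2.36 ± 0.68 (SE), a 5.15-fold lower mean and the largest ratio to its SE at that time among the 9 members kept. At BDL day 14 *Yap1* was 2.89-fold above BDL day 3 (log2 1.53 ± 0.64) and 1.78-fold below day 0 (log2 -0.83 ± 0.64), the latter within 2 SE.

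*Wwtr1*, whose product TAZ is the paralog of YAP, lies on the minus strand at chromosome 3, 57455649 to 57575910. Its means in the same order were 12.1, 5.21 and 16.6 normalized counts, with a pooled SD of 0.68. The BDL day 3 mean was again the lowest, but here BDL day 14 was the highest. Against day 0 the log2 ratios were -1.22 ± 0.55 after 3 days and 0.46 ± 0.52 after 14 days, and BDL day 14 was 3.19-fold above BDL day 3 (log2 1.67 ± 0.52). Its highest library, of 27.9, could not be placed from the sums of the groups. The geometric mean, with a tolerance of 1%, placed it in BDL day 14, where it held 42.0% of the sum, and without it the BDL day 14 mean was 12.8 and its log2 ratio to day 0 was 0.08.

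Per kilobase of exon, *Wwtr1* stood 2.25-fold above *Yap1* at day 0, 5.00-fold at BDL day 3 and 5.51-fold at BDL day 14. Against day 0, the log2 ratio of *Wwtr1* exceeded that of *Yap1* by 1.15 ± 0.88 after 3 days and by 1.29 ± 0.82 after 14 days, with an SE that takes the 2 genes as independent. Both differences lay within 2 SE, so a shift between the coactivators was not detectable with these libraries.

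*Tead1*, a TEAD factor that brings YAP and TAZ to DNA, lies on the plus strand at chromosome 7, 112679318 to 112906807. Its means were 3.29, 0.654 and 4.06 normalized counts, with the largest pooled SD of the members (1.72). Its mean was 5.03-fold lower at BDL day 3 than at day 0 (log2 -2.33 ± 1.40, and -1.14 with quantile normalization), which was within 2 SE, and 6.21-fold higher at BDL day 14 than at BDL day 3 (log2 2.63 ± 1.31), just past 2 SE. *Tead4*, a second TEAD factor, lies on the minus strand at chromosome 6, 128224288 to 128300823. Its means were 1.05, 0.0729 and 1.17, and the BDL day 3 value is the lowest mean of that group in the whole table. Against a floor of 0.292, the BDL day 3 mean of *Tead4* was at least 3.60-fold under that of day 0 and at least 4.01-fold under that of BDL day 14. With 8.06 normalized counts in all 10 libraries, these bounds rest on very low levels.

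*Lats1* and *Lats2*, the kinases that phosphorylate YAP and TAZ, differed little between the groups. The means of *Lats1* (plus strand, chromosome 10, 7681214 to 7716460) were 9.55, 11.5 and 10.8 normalized counts, with log2 ratios to day 0 of 0.27 ± 0.48 and 0.18 ± 0.45. The means of *Lats2* (minus strand, chromosome 14, 57689662 to 57758388) were 14.1, 16.5 and 12.6, with log2 ratios of 0.23 ± 0.39 and -0.16 ± 0.36. All 4 ratios lay under 1 SE. *Lats2* is itself a YAP target, and its ratio at BDL day 3 had the opposite sign to those of *Ccn1* and *Ccn2*. Each of these ratios was within 2 SE, and the difference between them was not set against an SE. *Ajuba*, a LIM protein that binds and inhibits LATS kinases, lies on the minus strand at chromosome 14, 54567472 to 54577558. It had means of 4.07, 5.04 and 3.61 (log2 0.31 ± 0.61 and -0.17 ± 0.58) and also stayed under 1.5-fold at both times, although quantile normalization moved its log2 ratios to 0.94 and 0.43.

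*Amotl2*, an angiomotin that binds YAP at cell junctions and is also a YAP target, lies on the plus strand at chromosome 9, 102716672 to 102733418. Its means were 14.3, 3.96 and 7.10 normalized counts with a pooled SD of 1.06. Its log2 ratios against day 0 were -1.85 ± 0.87 after 3 days and -1.01 ± 0.81 after 14 days. A single day 0 library of 28.8 held 67.1% of that group's sum. Without it the day 0 mean was 7.05, the ratio at BDL day 3 was -0.83 and that at BDL day 14 was 0.01. The lower mean at BDL day 14 thus rested on 1 day 0 library, as did the place of *Amotl2* past 2 SE at BDL day 3.

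**Figure D2:**
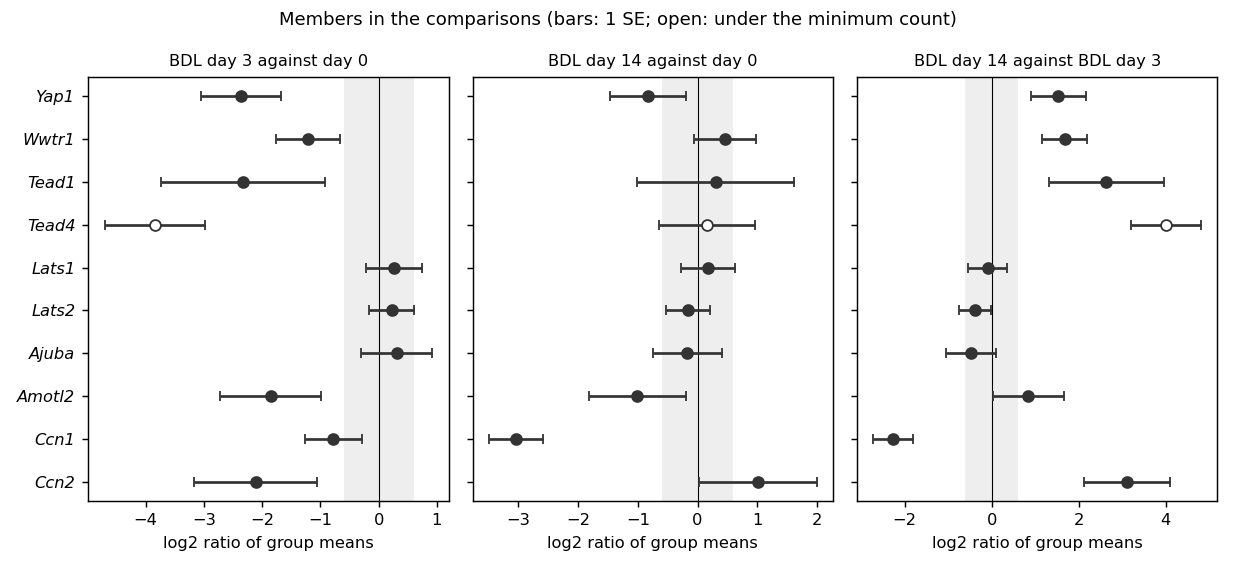
Log2 ratios of group means for the 10 members in the 3 comparisons, with bars of 1 SE from the pooled spread. The grey band marks ratios under 1.5-fold, and the open point is *Tead4*, whose BDL day 3 mean is at the floor. *Ccn1* and *Ccn2* lie on opposite sides of 0 at BDL day 14 (-3.04 and 1.01).

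At BDL day 14, 3 members were over 1.5-fold lower than at day 0 (*Yap1*, *Amotl2* and *Ccn1*) against 28.8% of all genes kept, and 1 was higher (*Ccn2*) against 21.2%. With quantile normalization, 3 were lower and 2 higher (*Tead1* with *Ccn2*). With 2 SE as well, *Ccn1* alone stayed lower, against 16.8% of all genes, and 0 members were higher, against 13.2%. The members' median log2 ratio was -0.16 and that of all genes -0.04, so the count of lower members was near that of the table as a whole. Against BDL day 3, 5 members were over 1.5-fold higher at BDL day 14 (*Yap1*, *Wwtr1*, *Tead1*, *Amotl2* and *Ccn2*), where 21.2% of all genes were higher, and *Ccn1* was lower, where 19.7% were lower. With 2 SE these were 4 (without *Amotl2*) against 11.3% and 1 against 10.6%. The comparisons with day 0 share its 3 libraries, and the comparisons with BDL day 3 share that group's, so these counts are not independent of one another.

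*Ccn1* and *Ccn2*, the secreted factors most often read as YAP targets, took different courses. *Ccn1* lies on the minus strand at chromosome 3, 145646976 to 145649981. It averaged 33.9 normalized counts in day 0 libraries, 19.8 in those of BDL day 3 and 4.12 in those of BDL day 14, with a pooled SD of 0.59. Against day 0 its log2 ratios were -0.78 ± 0.49 after 3 days and -3.04 ± 0.45 after 14 days, an 8.23-fold lower mean. From BDL day 3 to BDL day 14 it was 4.81-fold lower again (log2 -2.26 ± 0.45). A single library could lie between 12.2 and 44.2 at day 0 and between 0.981 and 9.22 at BDL day 14, so no library of BDL day 14 overlapped day 0, a separation found in 3.09% of all genes kept. Between BDL day 14 and BDL day 3 no member was separated in this way, against 1.59% of all genes. The *Ccn1* separation used the geometric mean with a tolerance of 1%. With a tolerance of 5% the day 0 range began at 4.88 and the BDL day 14 range ended at 12.0, and the groups could overlap. Its highest library of 43.8 was placed in day 0 by the geometric mean and not by the sums. Without it the ratios to day 0 were -0.55 after 3 days and -2.81 after 14, so that *Ccn1* was then under 1.5-fold at BDL day 3 and 5 members remained lower.

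*Ccn2* lies on the plus strand at chromosome 10, 24595442 to 24598683. Its means were 31.1, 7.21 and 62.5 normalized counts with a pooled SD of 1.30. The BDL day 3 mean was 4.31-fold below day 0 (log2 -2.11 ± 1.06, just within 2 SE), and the BDL day 14 mean was 8.67-fold above BDL day 3 (log2 3.12 ± 0.99). Against day 0 the BDL day 14 mean was 2.01-fold higher (log2 1.01 ± 0.99), which was within 2 SE. A single library could lie anywhere between 0.751 and 85.5 at day 0, so the day 0 level is poorly fixed. The highest library, of 90.5, was placed in BDL day 14 by the geometric mean alone and held 36.2% of the group's sum, and without it the ratio to day 0 was 0.77 and that to BDL day 3 was 2.88.

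The log2 ratio to day 0 of *Ccn2* lay 4.05 ± 1.09 above that of *Ccn1* at BDL day 14, 3.72 times its SE, and 1.33 ± 1.16 below it at BDL day 3. Per kilobase of exon, *Ccn1* was 1.54-fold above *Ccn2* at day 0 and 3.89-fold above it at BDL day 3, and *Ccn2* was 10.7-fold above *Ccn1* at BDL day 14. This difference of courses between *Ccn1* and *Ccn2* was chosen after their values were seen. Of the rest of the CCN family, *Ccn4* had means of 3.88, 0.436 and 0.978 (log2 -3.15 ± 1.95 and -1.99 ± 1.82). *Ccn3* (0.883, 0.0729 and 0.175) and *Ccn5* (0.821, 0.0729 and 0.703) did not reach the minimum count.

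Ordered per kilobase of exon, the day 0 levels of the members were *Ccn1* 16.8, *Ccn2* 10.9, *Wwtr1* 2.53, *Amotl2* 2.27, *Lats2* 2.02, *Lats1* 1.31, *Yap1* 1.12, *Ajuba* 1.12, *Tead4* 0.292 and *Tead1* 0.242 normalized counts per kilobase. Of the 9 steps between neighbours in that order, 2 were over 2 SE, that from *Ccn2* to *Wwtr1* and that from *Ajuba* to *Tead4*. At BDL day 3 the order was led by *Ccn1* (9.81), *Ccn2* (2.52) and *Lats2* (2.37), with *Yap1* at 0.218, and only the step from *Ccn1* to *Ccn2* was over 2 SE. At BDL day 14 it was led by *Ccn2* (21.8), *Wwtr1* (3.47) and *Ccn1* (2.04), with *Yap1* at 0.631, and only the step from *Ccn2* to *Wwtr1* was over 2 SE. By rank, both targets stood above the coactivators at day 0 and at BDL day 3. At BDL day 3, however, each step from *Ccn2* down to *Wwtr1* was within 2 SE, and their whole gap was not set against an SE. At BDL day 14 *Ccn1* ranked under *Wwtr1* by a step within 2 SE.

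The other genes of the pathway were read from the lists of known regulators and targets, 71 genes with the members, of which 67 were in the table and 62 were kept. Together 37 were over 1.5-fold lower and 7 higher at BDL day 3 (median log2 ratio -0.97), where 29.2% of all genes kept were lower and 19.2% higher. At BDL day 14, 25 were lower and 7 higher against day 0 (median -0.31), beside 28.8% and 21.2% of all genes, and with quantile normalization these were 19 and 10. Against BDL day 3, 8 were lower and 29 higher (median 0.49), beside 19.7% and 21.2%. The counts of each list that follow are to be read against these shares. The lists include the members, and some genes, such as *Amotl2* and *Ptpn14*, stand in more than a single list. The list counts therefore partly repeat the member counts and each other.

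**Figure D3:**
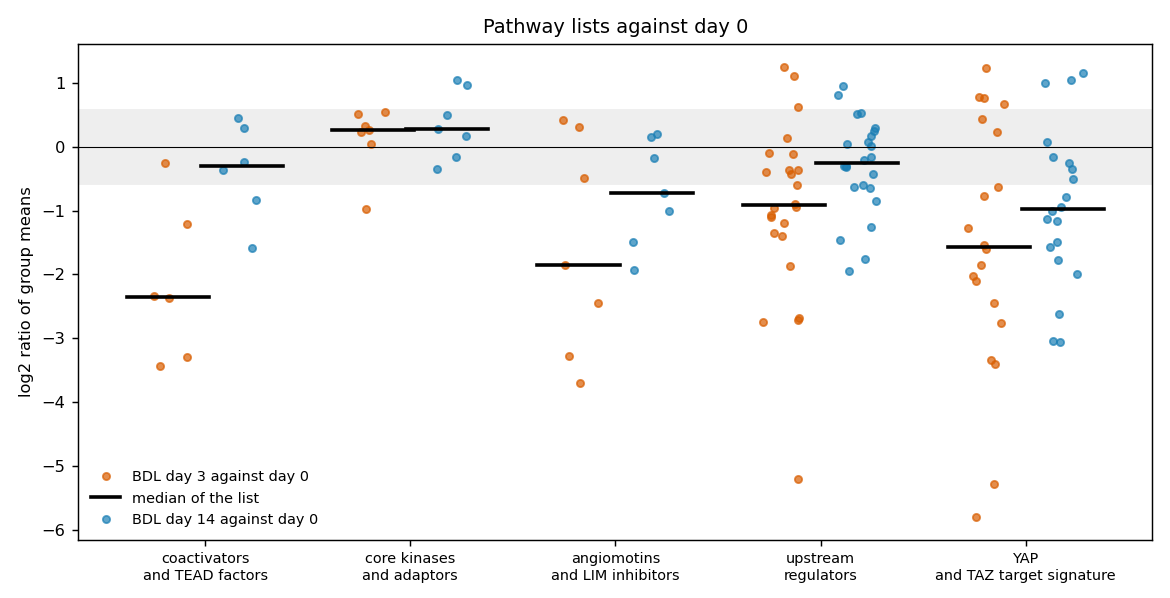
Log2 ratios to day 0 of the genes kept in 5 lists of the pathway, each point 1 gene, at BDL day 3 and BDL day 14, with the median of each list as a black line. The grey band marks ratios under 1.5-fold. The median of the coactivators and TEAD factors was -2.35 at BDL day 3 and that of the core kinases and adaptors was 0.27.

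Of the coactivators and TEAD factors, 6 of 8 listed genes were kept, and 5 were over 1.5-fold lower at BDL day 3, 4 of them by over 2 SE. At BDL day 14, 2 were lower than at day 0, 0 of them by over 2 SE. Against BDL day 3, 5 were higher, 4 of them by over 2 SE. Beside the members, *Tead3* had a BDL day 3 mean at the floor, at least 7.75-fold under its day 0 mean of 2.26, with 0.750 at BDL day 14 (log2 -1.59 ± 0.93). Of the 7 core kinases and adaptors, 1 was over 1.5-fold lower at BDL day 3 and 0 were higher, and 2 were higher at BDL day 14, for a median of 0.28. With 7 genes, these counts are not far from the shares of all genes. These were chosen after their values were seen. They were *Stk3*, which encodes MST2 (14.6 and 7.42 at day 0 and BDL day 3, log2 -0.98 ± 0.45), *Stk4*, which encodes MST1 (26.1 and 54.2 at day 0 and BDL day 14, log2 1.05 ± 0.18), and *Mob1b*, a LATS cofactor (6.52 and 12.8, log2 0.97 ± 0.41).

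Of the 7 angiomotins and LIM inhibitors, 4 were over 1.5-fold lower at BDL day 3, all by over 2 SE (median -1.85). At BDL day 14, 4 were lower (median -0.72), 1 of them by over 2 SE. *Amot*, the first angiomotin, had means of 5.15, 0.395 and 3.12 (log2 -3.70 ± 0.90 and -0.72 ± 0.84). *Ptpn14*, a phosphatase that binds YAP, had means of 5.01, 0.915 and 1.79 (log2 -2.45 ± 1.11 and -1.48 ± 1.04). Of the 24 upstream regulators, 14 were over 1.5-fold lower and 3 higher at BDL day 3 (median -0.92). At BDL day 14, 8 were lower and 2 higher (median -0.25), the 8 being near the 28.8% of all genes. By over 2 SE, 10 were lower and 1 higher at BDL day 3, and 2 lower and 1 higher at BDL day 14. *Wwc1*, the cortical scaffold KIBRA, went from 7.12 to 1.08 and 1.84 (log2 -2.72 ± 0.35 and -1.95 ± 0.33). *Patj*, a polarity scaffold, went from 6.88 to 1.03 and 2.51 (log2 -2.74 ± 0.79 and -1.45 ± 0.74), and *Map4k2*, a kinase parallel to MST, from 22.6 to 10.5 and 6.72 (log2 -1.11 ± 0.30 and -1.75 ± 0.28). The atypical cadherin *Fat4* had a BDL day 3 mean at the floor, at least 19.1-fold below its day 0 mean of 5.56, and reached 3.54 by BDL day 14. The polarity gene *Crb3* had means of 2.31, 1.19 and 0.965 (log2 -0.96 ± 0.79 and -1.26 ± 0.74). *Rassf1*, a scaffold of the MST kinases, was the upstream gene higher at both times, with means of 14.6, 35.0 and 28.3 (log2 1.26 ± 0.29 and 0.95 ± 0.27).

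Of the 22 genes of the YAP and TAZ target signature, 20 were kept, of which 14 were over 1.5-fold lower and 4 higher at BDL day 3 (median -1.57). At BDL day 14, 12 were lower and 3 higher (median -0.98). By over 2 SE, 9 were lower and 3 higher at BDL day 3, and 6 lower and 2 higher at BDL day 14. By 2 SE, 15.0% of all genes were lower and 11.4% higher at BDL day 3, and after 14 days 16.8% and 13.2%. *Igfbp3*, a secreted binding protein of insulin-like growth factors, had means of 20.9, 0.534 and 3.41 (log2 -5.29 ± 0.74 and -2.62 ± 0.70). *Arhgef17* had 7.62, 1.13 and 0.918 (log2 -2.75 ± 1.02 and -3.05 ± 0.95), and *Ccdc80*, a matrix protein, had 54.6, 5.15 and 31.7 (log2 -3.41 ± 0.70 and -0.78 ± 0.66). The RNA-binding protein gene *Rbms3* was at the floor at BDL day 3, at least 31.1-fold below its day 0 mean of 9.07, and *Tgfb2*, a TGF-beta ligand, at least 6.72-fold below 1.96. Several of these genes, *Igfbp3* and *Ccdc80* among them, are also expressed by stromal cells. The 4 targets higher at BDL day 3 were chosen after their values were seen. They were *Axl*, a receptor tyrosine kinase that macrophages also express (339, 796 and 358 normalized counts), *Myof* (33.4, 56.9 and 74.4), *Asap1* (18, 31.1 and 37.3) and *Dock5* (7.18, 11.4 and 5.62). *Axl* was the most abundant gene of the signature in every group.

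Markers of other cell types differed between the groups as well. The 8 sinusoidal endothelial markers summed to 995, 589 and 1033 normalized counts in order of time, with none at the floor. Of these, 7 were over 1.5-fold lower at BDL day 3, and 6 were higher and 1 lower at BDL day 14 than at BDL day 3, for median log2 ratios to day 0 of -1.48 and 0.39. *Clec4g*, a sinusoidal lectin, had means of 241, 69.5 and 365, and *Cdh5*, the endothelial cadherin, went the other way with 207, 299 and 81.5. *Yap1*, *Wwtr1*, *Tead1*, *Amotl2* and *Ccn2* were lowest at BDL day 3 and higher at BDL day 14, as were all these endothelial markers except *Cdh5*. All 6 smooth muscle and mural markers and *Spp1* took this course too, so it was not particular to endothelial markers. At BDL day 14 the means of *Yap1* (5.84 against 10.4) and *Amotl2* (7.10 against 14.3) were below those of day 0. Both differences were within 2 SE, and that of *Amotl2* rested on 1 day 0 library. The part of endothelial cells in the members' values was not tested.

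The 10 stellate and fibroblast markers summed to 1119, 27.0 and 108 normalized counts, and all 10 were over 1.5-fold lower at both times, with *Col3a1* at 422, 4.47 and 32.3 and *Col1a2* at 255, 2.85 and 25.2. *Lum* at BDL day 3 and *Lrat* at BDL day 14 were at the floor. The 6 smooth muscle and mural markers summed to 691, 15.1 and 79.6, and all 6 were lower at both times, with *Acta2* at 228, 3.86 and 19.7 and *Tagln* at 142, 3.35 and 14.4, and *Cnn1* at the floor at BDL day 3. *Ccn1* and the lower target genes were also below day 0 at BDL day 14, as were the hepatocyte, T and NK cell, B cell and neutrophil marker sums. *Ccn1* was lower at BDL day 14 (4.12) than at BDL day 3 (19.8), whereas the stellate and smooth muscle sums were higher. The part of any of these cells in the *Ccn1* result was not tested. Against BDL day 3, 6 of the 10 stellate and fibroblast markers were over 1.5-fold higher and 3 lower at BDL day 14, and all 6 smooth muscle markers were higher.

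**Figure D4:**
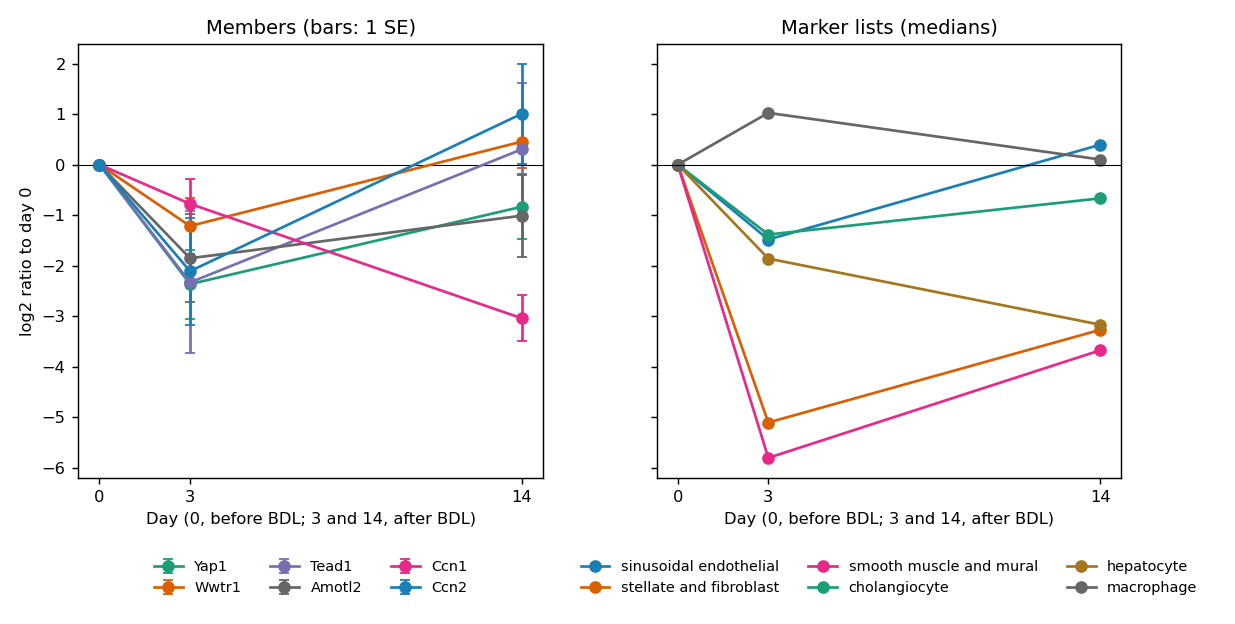
Log2 ratio to day 0 at days 3 and 14 after BDL for 6 members (left, bars of 1 SE) and as the median of 6 marker lists (right). The sinusoidal endothelial median (-1.48 and 0.39) was lower at day 3 than at day 14, as were *Yap1*, *Wwtr1*, *Tead1*, *Amotl2* and *Ccn2*, and so were the stellate (-5.10 and -3.27), smooth muscle (-5.80 and -3.67) and cholangiocyte (-1.38 and -0.67) medians.

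Among the cholangiocyte markers, 7 of the 8 kept were over 1.5-fold lower at BDL day 3 (median -1.38), and at BDL day 14, 5 were lower and 1 higher (median -0.67). *Spp1* had means of 459, 175 and 792 and *Krt8* of 57.2, 60.1 and 60.9. The hepatocyte markers summed to 3398, 935 and 377, with *Alb* at 2440, 642 and 271 and *Serpina1a* at 353, 102 and 28.9. T and NK cell markers summed to 111, 31.3 and 8.30 (*Gzma* 33.7, 8.25 and 2.04, and *Cd3g* 22.0, 6.56 and 0.710), B cell markers to 180, 49.1 and 21.3 (*Cd79b* 82.2, 33.0 and 18.1, and *Cd79a* 50.6, 10.5 and 1.55) and neutrophil markers to 456, 207 and 125 (*S100a9* 306, 139 and 80.9, and *S100a8* 123, 49.1 and 37.6). Of the 8 macrophage markers, 7 were over 1.5-fold higher at BDL day 3, the exception being *Clec4f*, with 4610, 6890 and 185, under 1.5-fold higher. *Lyz2* had means of 2280, 4560 and 11200. The part of these lists in the members' values was not tested.

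The genes whose pair of log2 ratios to day 0 lay nearest to that of a member were sought over the 3 group means of all genes kept. For *Yap1* the nearest were *Ets1* (distance 0.012), *Cdh6* (0.029) and *Bcl6b* (0.11), and 35 genes lay within 0.25. For *Tead1* they were *Gata2* (0.077), *Tbx2* (0.082) and the endothelial receptor gene *Tek* (0.11), with 25 genes within 0.25. For *Ccn2* they were *Cyyr1* (0.019), *Zbtb16* (0.047) and *Rarb* (0.11), with 14 within 0.25. By comparison, 1048 genes lay within 0.25 of *Lats1*, whose ratios were near 0. The likeness rests on 3 group means.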

How the data were processed

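mRNA of sorted GFP(+) cells was sequenced. In Partek Flow the authors trimmed reads, mapped them with STAR (2.6.1d in the submitters' processing notes) to mm10, counted GENCODE M18 genes and applied upper quartile normalization. The deposited table holds signal values (group means, the arithmetic and geometric mean over 10 libraries and the highest library of each gene), and 0 columns hold a single library. Further columns, not used here, give the p-value, FDR, ratio, fold change and 95% limits of each comparison of the authors.

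Group sizes of 3, 3 and 4 gave back the arithmetic mean within 0.469% (99th percentile), against 4.93% for the next best sizes. Genes with summed normalized counts of at least 10 were kept, and 1.5-fold marked a difference. Means up to 4 times the lowest of their group (0.512, 0.292 and 0.244) were read as the floor. The SE assumes the same log2 spread in the 3 groups. The spread, the library ranges, the placing of the highest library and the 1.5-fold call were run first on simulated data with known answers. The other steps were not. The software was Python 3.11.15, numpy 2.4.6, pandas 2.3.3 and matplotlib 3.10.9. Exon lengths per kilobase came from GENCODE M21, where 99.9% of 16950 shared symbols have identical coordinates.

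The members and lists were chosen with earlier results of these data known. Named were all members, up to 6 genes of each other pathway list over 1.5-fold at both times in 1 direction, the CCN family, the 2 highest day 0 genes of each marker list, and the 3 nearest genes of the 3 members kept with the largest log2 ratios at BDL day 3. The libraries are biological replicates from mice of both sexes, per the study, in proportions that differed between the groups. Sex could not be taken into account with group means. The 2 SE rule, the ranges with the geometric mean and the placing of the highest library with it were chosen after seeing the data. Other alternatives were a mean of at least 10, no filter, a pseudocount of 1, median-ratio scaling, quantile normalization, a 2-fold threshold, a tolerance of 5% and the means without the highest library.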

Additional observations from a re-analysis of the deposited data

How the results depend on the processing

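No paired analysis was possible because the table holds no value per library, and leaving out each replicate in turn could not be run for the same reason. A mean of at least 10 was reached by fewer genes, and among the members only by *Wwtr1*, *Lats1*, *Lats2*, *Ccn1* and *Ccn2*. Of these, 3 were over 1.5-fold at BDL day 3, 2 at BDL day 14 and 3 between these times, and the pathway genes were 17, 11 and 16. The share of all genes past 1.5-fold with this minimum was not computed. As fewer genes are counted, these lower counts do not by themselves mean a lower share. With 2 SE as a further condition, 3 members remained over 1.5-fold at BDL day 3 and 1 at BDL day 14 against day 0, and 14 pathway genes at BDL day 14. A 2-fold threshold left 21 pathway genes at BDL day 14. From the means and the highest library alone, no member was separated between BDL day 14 and day 0, and 1 (*Ccn1*) was once the geometric mean was used. The log2 ratio of *Amotl2* at BDL day 14 turned from -1.01 to 0.0102 without its highest library, by either way of placing that library. Of 150 log2 ratios of members under alternatives, 5 moved by over 1 pooled SD, all of *Tead4*, and 3 turned sign, 2 of them this value of *Amotl2* and 1 that of *Ajuba* at BDL day 14, from -0.17 to 0.43 with quantile normalization. Quantile normalization shifted the median of all genes by 0.14 (log2) against day 0 at both times. The depth of each library is unknown, so counting error could not be given, and values of a few normalized counts, such as those of *Tead1*, *Tead4* and *Tead3*, are the least certain.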
